A study of Drosophila melanogaster with 10 samples.

Results

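The 49 genes described here encode 3 families of metabolic enzymes in Drosophila S2 cells: 20 cytochrome P450 genes, 7 UDP-glycosyltransferase (Ugt) genes and 22 glutathione S-transferase (Gst) genes. They were chosen by current gene symbol (Cyp with a number and a lower-case letter, Ugt with a number, and GstD, GstE, GstO, GstS, GstT or GstZ), with 1 probe set per gene and a mean log2 value above 4 over the 10 arrays. The gene table holds 155 such genes, of which 150 had a probe set of their own, and the 49 are part of 6721 genes and probe sets tested.

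Cytochrome P450 enzymes carry a haem group and insert oxygen into fatty acids, steroid hormones, pigments and foreign compounds. Ugt enzymes join a sugar from a UDP-sugar to small molecules, and glutathione transferases join them to glutathione or use glutathione in reductions and isomerisations. In the fly these families are known from fat body, midgut and Malpighian tubule, where they process both foreign compounds and the animal's own metabolites, and no drug or toxin is named for these S2 cultures.

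S2 is an embryonic Drosophila line that resembles macrophage-like blood cells. All cells received 10 µg of dsRNA for RNA interference (RNAi) and were collected on day 7. JIL-1 encodes a histone kinase bound to chromatin. In batch A, 2 samples were given dsRNA matching its 5' part and 3 controls received GST dsRNA. In batch B, 3 samples were given dsRNA matching its 3' part and 2 controls received EGFP dsRNA. The series calls the 5 samples per target biological replicates, but the labels name no separate cultures, so p-values measure the spread between these samples, which may in part be technical. The labels do not say which GST sequence was used.

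Values are log2 expression of Affymetrix probe sets, and changes are log2 differences, JIL-1 RNAi minus control, with the standard error (SE) of a limma fit that holds a term for batch. Adjusted p-values come from limma, adjusted by Benjamini and Hochberg's method over all 6721, with a threshold of 0.05. JIL-1 itself changed by -1.56 (SE 0.08, adjusted p = 5.32e-07). It had 4.35 and 4.35 in batch A after JIL-1 RNAi, against 5.79, 5.95 and 5.66 in controls. In batch B it had 5.66, 5.78 and 5.84, against 7.53 and 7.34. Its JIL-1 RNAi values of batch B thus overlapped the controls of batch A, and without a term for batch it did not pass (-1.26, adjusted p = 0.153). Of 8 hemocyte markers 8 had a mean above 4, while none of 4 measured fat body and 2 measured midgut markers exceeded 2.29 in any sample, near the lowest value of the scale, 2.2. Of the tubule and neuron markers, 1 of 3 and 2 of 3 had a mean above 4. The number of arrays limits the precision. In such bulk RNA, fewer cells of a type and less RNA per cell cannot be told apart.

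After JIL-1 RNAi most P450 and Ugt genes of this set were lower than in controls, and the Gst genes moved both ways by small amounts. Of the 49 genes 33 changed (67.3%), against 35.7% of all tested, and 21 of these calls were lost without a term for batch. Falls numbered 26 (14.9% of all tested fell), and rises 7 (20.8% of all tested rose). Among the 20 P450 genes 14 fell and 3 rose, among the 7 Ugt genes 6 fell and none rose, and among the 22 Gst genes 6 fell and 4 rose. The median change was -0.72 for P450 genes, -0.40 for Ugt genes and -0.06 for Gst genes, against 0.05 over all tested. The median absolute change was 0.98, 0.40 and 0.21 in the same order, against 0.16 over all tested. These are descriptions, and the differences between the families were not tested. Falls of at least 2-fold were seen in 8 P450 genes, 2 Ugt genes and 0 Gst genes (2.32% of all tested), and 1 P450 gene rose by as much (0.387% of all tested). These counts and medians include Cyp12a4, whose fall had to appear, since the gene passed the filter on the mean through its control samples alone. Without it 32 of 48 genes changed and 25 fell, 13 of 19 P450 genes fell, and 7 P450 genes fell by at least 2-fold. Within both batches, the JIL-1 RNAi samples lay entirely below the controls for 24 of the 49 genes, or 23 of 48 without Cyp12a4 (13.4% of all tested), and entirely above for 7 (18.2%).

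**Figure D1:**
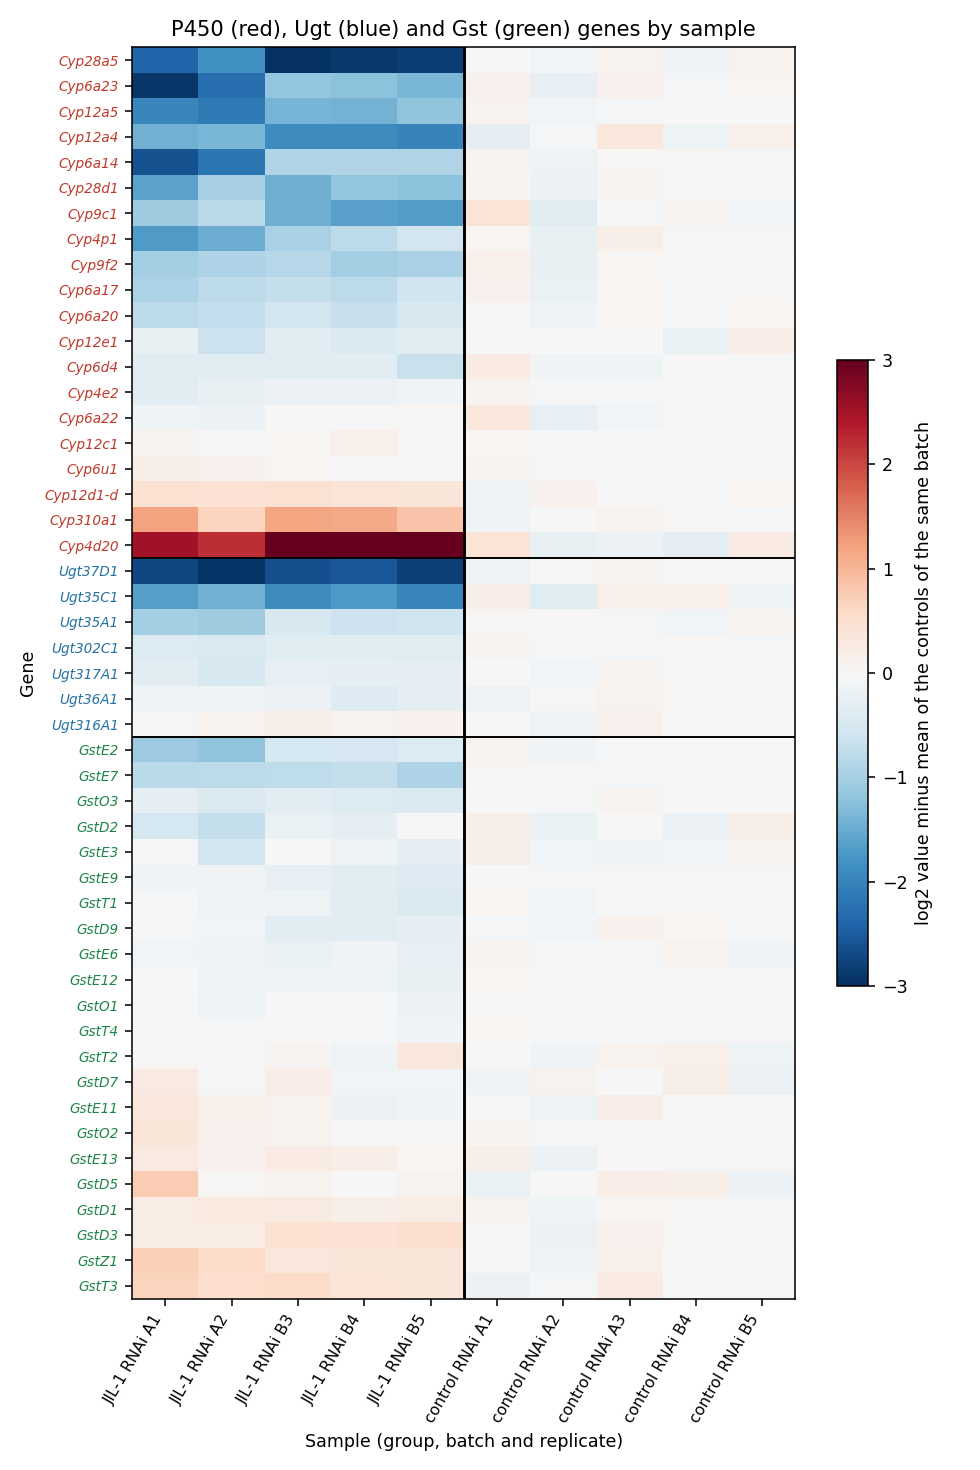
Each row is 1 of the 49 genes and each column 1 sample, with JIL-1 RNAi samples left of the line and controls right of it. Colour gives the log2 value minus the mean of the control samples of the same batch, drawn up to 3 in either direction. Many P450 rows and those of Ugt37D1, Ugt35C1 and Ugt35A1 are blue across all 5 JIL-1 RNAi samples. The other Ugt rows and most Gst rows are pale.

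The microsomal P450 genes of the Cyp6, Cyp9, Cyp28 and Cyp310 groups belong to the clan most often linked to foreign compounds. They had 12 tested members, of which 9 fell and 1 rose (14.9% and 20.8% of all tested). Cyp28a5 lay in batch A at 7.81 and 8.39 after JIL-1 RNAi, against 10.19, 10.11 and 10.30 in controls, and in batch B at 3.33, 3.40 and 3.47, against 6.19 and 6.38. The 5 JIL-1 RNAi values lay below the controls of their batch, but batch A after JIL-1 RNAi still lay above the controls of batch B. With values under 4 raised to 4, the fitted change was -2.19 (SE 0.10, adjusted p = 3.28e-07). Its relative Cyp28d1 had 7.44 and 8.05 in batch A after JIL-1 RNAi, against 9.13, 8.86 and 9.12 in controls, and 7.16, 7.44 and 7.41 in batch B, against 8.62 and 8.64. Here all JIL-1 RNAi values lay below all control values, with a change of -1.29 (SE 0.11, adjusted p = 2.36e-05). Cyp9f2 was 1.95-fold lower (change -0.97, SE 0.08) and Cyp9c1 2.39-fold lower (change -1.26, SE 0.16).

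Of the 7 tested Cyp6 genes 5 fell (14.9% of all tested). Cyp6a20, known from work on aggression in males, changed by -0.67 (SE 0.07), and Cyp6a17, known from work on temperature preference, by -0.78 (SE 0.08). Cyp6a23 had 4.72 and 5.36 in batch A after JIL-1 RNAi, against 7.76, 7.37 and 7.76 in controls, and 4.93, 4.86 and 4.73 in batch B, against 6.04 and 6.14. Cyp6a14 had 6.25 and 6.69 after JIL-1 RNAi in batch A, against 8.97, 8.70 and 8.89 in controls, and 5.11, 5.13 and 5.13 in batch B, against 6.05 and 5.99. In both genes each JIL-1 RNAi sample lay below the controls of its own batch, with changes of -1.92 (SE 0.24) and -1.64 (SE 0.25). Cyp6d4 also fell (-0.40, SE 0.09). Cyp6a22 and Cyp6u1 did not pass, with changes of -0.07 (95% interval -0.28 to 0.15) and 0.07 (-0.05 to 0.20). Cyp6a22 passed the filter on the mean through batch A alone. Its 5 values of batch B lay at 2.24 to 2.29, where a fall could not show. Cyp310a1 was the exception in direction, 1.99-fold higher (change 0.99, SE 0.11, adjusted p = 9.46e-05), with 8.44 and 7.90 in batch A after JIL-1 RNAi, against 7.14, 7.24 and 7.33, and 8.56, 8.50 and 8.23 in batch B, against 7.41 and 7.34. All of its JIL-1 RNAi values exceeded all of its control values.

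The Cyp4 group, named for fatty acid hydroxylases in mammals, had 3 tested members. Cyp4d20 showed the only rise of 2-fold or more among the 49 genes. It had 7.11 and 6.81 in batch A after JIL-1 RNAi, against 4.99, 4.36 and 4.41 in controls, and 7.96, 7.56 and 7.51 in batch B, against 4.17 and 4.69. All JIL-1 RNAi values exceeded all control values. The change was 2.81 (SE 0.20, adjusted p = 6.84e-06). Cyp4e2 fell by 0.21 on the log2 scale (SE 0.05, adjusted p = 0.0132), and Cyp4p1 changed by -1.18 (SE 0.16).

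Of 5 tested P450 genes of the Cyp12 group, whose products lie in mitochondria, 3 fell and 1 rose, or 2 and 1 of 4 without Cyp12a4. Over all tested, 14.9% fell and 20.8% rose. Cyp12a5 had 7.36 and 7.19 after JIL-1 RNAi in batch A, against 9.43, 9.24 and 9.29 in controls, and 8.12, 8.11 and 8.33 in batch B, against 9.53 and 9.52. It was 3.24-fold lower (change -1.70, SE 0.13, adjusted p = 8.18e-06). Cyp12a4, its neighbour on arm 3R, had 3.09 to 3.38 in the 5 JIL-1 RNAi samples, all under 4, against 4.27 to 5.41 in controls. It is given no test here, because its controls alone carried it past the filter. Cyp12d1-d, an enzyme known for induction by foreign compounds, rose by 0.42 (SE 0.06, adjusted p = 0.000412). A probe set shared with its near-identical copy Cyp12d1-p gave 0.41, so the copies cannot be told apart. The adjusted p of that probe set, 0.00772, came from a limma fit of all probe sets without the filter on the mean. Cyp12c1 lay at 0.06 (95% interval -0.04 to 0.17) and did not pass. Cyp12e1 fell by 0.40 (SE 0.09, adjusted p = 0.008), and its 3 controls of batch A share the value 6.32. Another of its probe sets gave -0.34, with an adjusted p of 0.298 in the unfiltered fit of all probe sets. With 1 probe set per gene and no filter on the mean, the main probe set had an adjusted p of 0.0516.

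**Figure D2:**
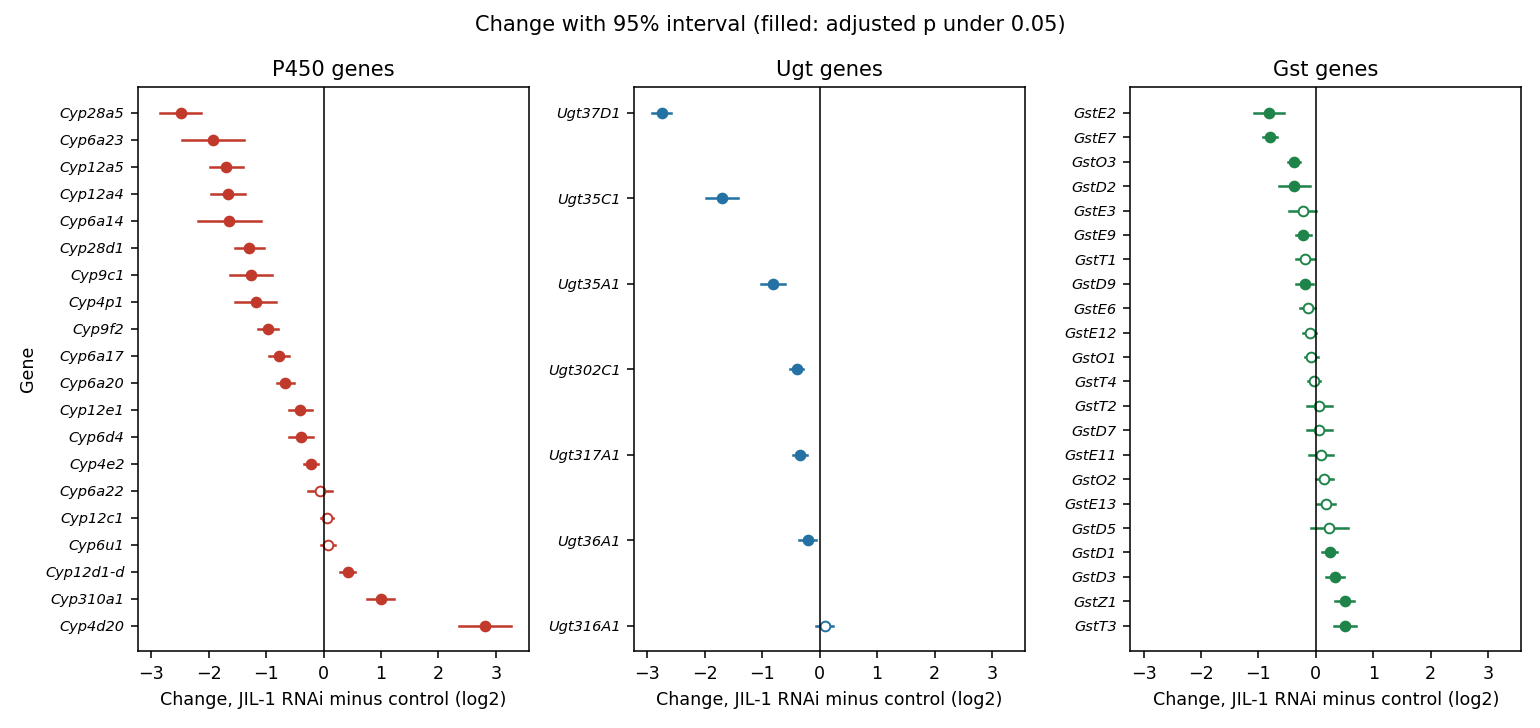
Points are changes (log2, JIL-1 RNAi minus control) of the 20 P450, 7 Ugt and 22 Gst genes, with 95% intervals from the limma fit and filled points for an adjusted p under 0.05. P450 changes run from -2.49 to 2.81, Ugt changes from -2.75 to 0.09 and Gst changes from -0.82 to 0.51. The lowest P450 change, that of Cyp28a5, rests partly on values under 4, and was -2.19 with these raised to 4. Cyp12a4 is drawn among the P450 genes, but its fall had to appear.

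Ugt genes had 1 direction among their calls. Ugt37D1 ranked 1 of all 6721 by p. It had 7.83 and 7.61 in batch A after JIL-1 RNAi, against 10.44, 10.60 and 10.65 in controls, and 6.30, 6.39 and 6.13 in batch B, against 8.93 and 8.94. All JIL-1 RNAi values lay below all controls, and the change was -2.75 (SE 0.07, adjusted p = 2.34e-08). Its probe set is of a type (_s_at) that can match more than 1 transcript. Ugt35C1 had 3.88 and 4.08 in batch A after JIL-1 RNAi, against 5.74, 5.16 and 5.69, and 4.98, 5.13 and 4.89 in batch B, against 7.00 and 6.72 in controls. The fitted change was -1.71 (SE 0.13, adjusted p = 7.62e-06), and -1.68 with its value under 4 raised to 4. Ugt35A1, from the same group of neighbours, had 8.34 and 8.29 in batch A after JIL-1 RNAi, against 9.40, 9.36 and 9.34, and 9.79, 9.63 and 9.67 in batch B, against 10.17 and 10.35 in controls. It was lower within each batch (change -0.81, SE 0.09, adjusted p = 0.000152), and its JIL-1 RNAi values of batch B lay above the controls of batch A.

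Smaller falls were those of Ugt302C1 (-0.40, SE 0.05), Ugt317A1 (-0.34, SE 0.06) and Ugt36A1 (-0.21, SE 0.07, adjusted p = 0.0321). Ugt36A1 had 6.91 in both JIL-1 RNAi samples of batch A and also in control replicate 1, so the groups met in that batch. The call of Ugt36A1 was lost in 7 of the 10 fits that left out 1 sample (control replicate 3, 4 or 5, or JIL-1 RNAi replicate 1, 2, 4 or 5), with changes between -0.25 and -0.18 over the 10. Ugt316A1 did not pass, at 0.09 (95% interval -0.06 to 0.23).

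Gst genes are grouped by class. Over the 22 genes 27.3% fell and 18.2% rose, the rises being no more frequent than the 20.8% of all tested, and differences between classes were not tested. Delta and Epsilon are the insect classes best known for conjugating insecticides and products of lipid oxidation. Of 8 tested Epsilon genes 3 fell (14.9% of all tested) and none rose. GstE7 had 10.64 and 10.67 in batch A after JIL-1 RNAi, against 11.48, 11.49 and 11.39 in controls, and 9.92, 9.96 and 9.75 in batch B, against 10.69 and 10.67. It was 1.75-fold lower (change -0.80, SE 0.05, adjusted p = 3.97e-06). GstE2 was at 9.62 and 9.50 in batch A after JIL-1 RNAi, against 10.83, 10.62 and 10.69 in controls, and 9.98, 10.00 and 10.10 in batch B, against 10.49 and 10.53. Its values after JIL-1 RNAi lay below all control values. GstE9 fell by 0.22 (SE 0.06), a call that was lost without control replicate 4 (change -0.18), and GstE6 lay at -0.14 (adjusted p = 0.0945).

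Of 6 tested Delta genes 2 rose and 2 fell (20.8% and 14.9% of all tested). GstD3 rose by 0.34 (SE 0.07) and GstD1, known for breaking down DDT, by 0.24 (SE 0.06). GstD2 and GstD9 fell by 0.38 (SE 0.12, adjusted p = 0.0352) and 0.19 (SE 0.07, adjusted p = 0.0486). Neither fall held throughout. Each call was lost in 7 of the 10 fits that left out 1 sample, with changes of -0.50 to -0.29 for GstD2 and of -0.22 to -0.14 for GstD9. For GstD2 these samples were control replicates 1, 3 and 5 and JIL-1 RNAi replicates 1 to 4. For GstD9 they were control replicates 3 to 5 and JIL-1 RNAi replicates 2 to 5.

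The remaining tested classes were Zeta, Theta and Omega. GstZ1 belongs to the Zeta class, which isomerises an intermediate of tyrosine breakdown. It had 8.71 and 8.58 in batch A after JIL-1 RNAi, against 7.97, 7.88 and 8.14 in controls, and 7.96, 7.97 and 7.97 in batch B, against 7.63 and 7.61. It rose by 0.50 (SE 0.07, adjusted p = 0.000731), the groups being apart within each batch. GstT3, a Theta class gene on the X chromosome, rose by 0.51 (SE 0.09, adjusted p = 0.00144), and GstT4, also on the X, lay at -0.03 (95% interval -0.14 to 0.07). Of 3 Omega genes, which act in thiol transfer, GstO3 fell by 0.38 (SE 0.05, adjusted p = 0.000356) and the other two did not pass. In all, 12 of the 22 Gst genes did not pass.

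**Figure D3:**
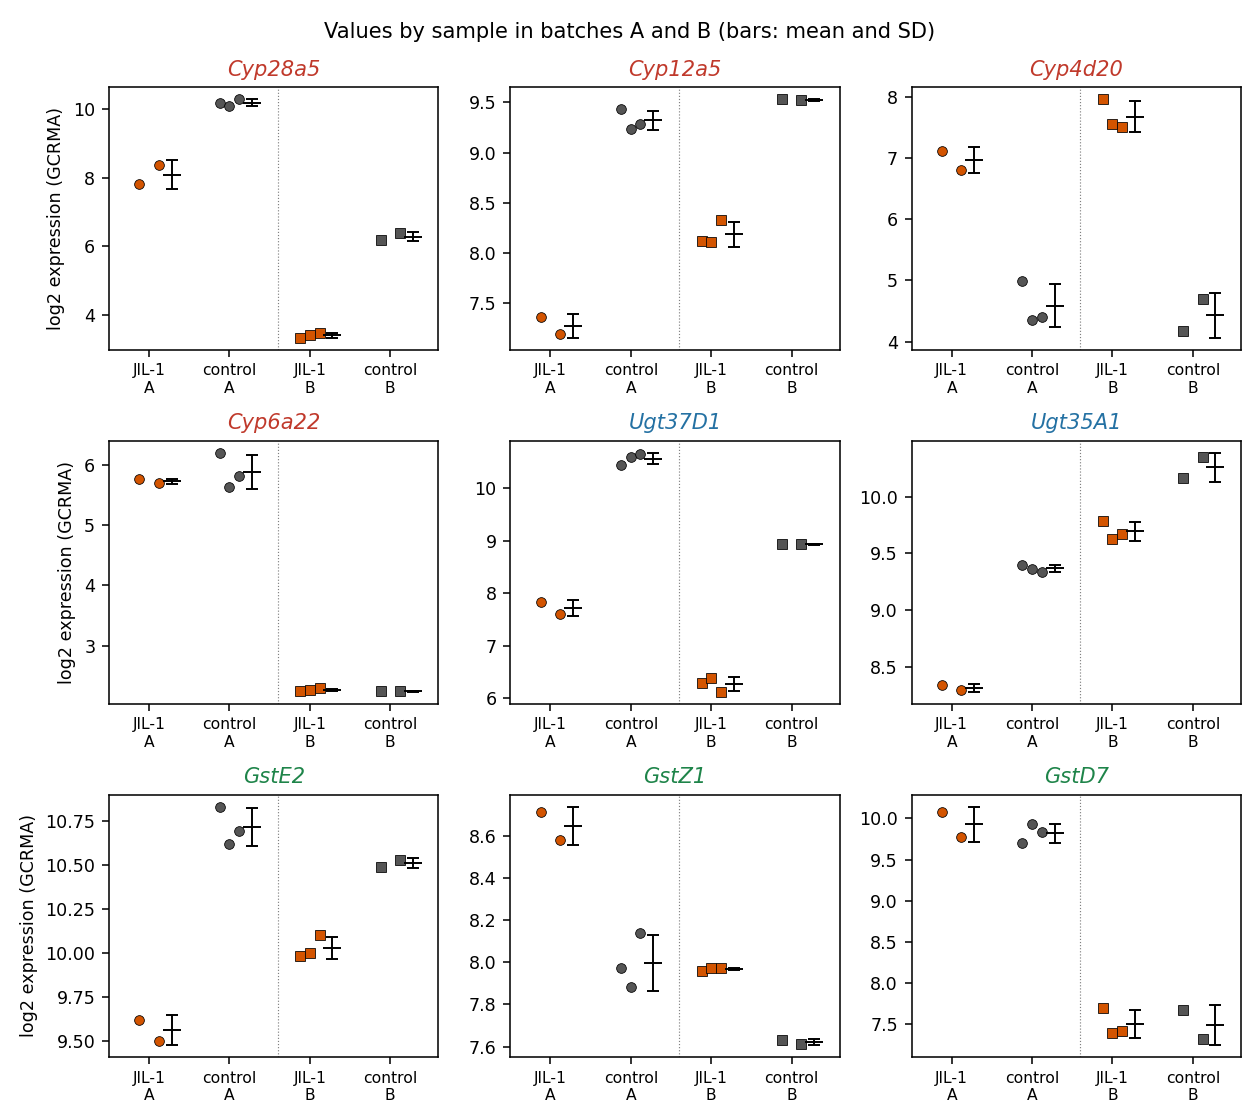
Points are log2 values of single samples for 9 genes, JIL-1 RNAi in orange and controls in grey, with batch A left of the dotted line and batch B right of it, and bars give the mean and SD of each set of 2 or 3 samples. Each vertical axis has its own range and does not start at 0. Cyp6a22 and GstD7 separate by batch and not by JIL-1 RNAi, and Cyp28a5 and Ugt37D1 separate by both.

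Many of these genes lie in tandem groups, taken here as genes of 1 family on 1 arm with starts within 50 kb of the next. Probe sets of such near copies may share signal, which was not tested. The counts in these groups stand beside 14.9% falls and 20.8% rises over all tested. On arm 3R a group of 10 Ugt genes had 3 tested members, Ugt35C1, Ugt302C1 and Ugt35A1, and all 3 fell, by -1.71 to -0.40. The GstE group on 2R holds 10 genes, of which 5 were tested and 3 fell (range of the 5 from -0.82 to -0.14). In the GstD group on 3R, with 11 genes, the 6 tested members ran from -0.38 to 0.34, with calls in both directions. The Cyp6a group on 2R holds 9 P450 genes. Of its 4 tested members Cyp6a17, Cyp6a20 and Cyp6a23 fell, and Cyp6a22, under 4 in all of batch B, did not pass.

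Different stretches of JIL-1 were targeted in the 2 batches, and the direction of change was set side by side. Of the 49 genes 46 had the same direction in both (74.9% of all tested). Within batch A 28 of them changed (28.2% of all tested), with 22 falls and 6 rises (10.9% and 17.3%). Within batch B 28 changed as well (17.6% of all tested), again with 22 falls and 6 rises (10.2% and 7.44%). Cyp12a4, whose fall had to appear, is counted among the 46 and among the falls of each batch. The change differed between batches for 4 genes, 3 of them P450 (1.38% of all tested differed). Cyp6a14 changed by -2.38 in batch A and -0.90 in batch B, a difference of -1.48 (SE 0.18, adjusted p = 0.00398). Cyp6a23 changed by -2.59 and -1.25 (difference adjusted p = 0.0447), Cyp12a5 by -2.05 and -1.34 (0.0426), and GstE2 by -1.15 and -0.48 (0.0259), batch A first. All 4 fell more in batch A. When 1 sample was left out, the call for Cyp6a14 held in 10 of 10 fits, with differences of -1.70 to -1.26. That for GstE2 held in 5, all but those without JIL-1 RNAi replicate 2, 4 or 5 or control replicate 4 or 5 (-0.73 to -0.61). The call for Cyp6a23 held without control replicate 2 or JIL-1 RNAi replicate 2 only (-1.66 to -1.02 over the 10), and that for Cyp12a5 without control replicate 2 only (-0.79 to -0.62).

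The batches also differed without JIL-1 RNAi, and for 28 of the 49 genes the difference between the controls was larger than the change after JIL-1 RNAi (73.3% of all tested). Controls differed in 35 of the 49 genes (62.4% of all tested), with 26 higher in batch A (24.7%) and 9 lower (37.7%). Differences of 1 or more were seen in 11 genes (12.5%). Cyp6a22 had 5.76 and 5.70 in batch A after JIL-1 RNAi, against 6.20, 5.64 and 5.81 in controls, while all 5 values of batch B lay between 2.24 and 2.29. GstD7, chosen after its values were seen, had 10.08 and 9.78 in batch A after JIL-1 RNAi, against 9.70, 9.93 and 9.83 in controls, and 7.70, 7.40 and 7.42 in batch B, against 7.67 and 7.32. Its controls were 5.01-fold higher in batch A (difference 2.32, adjusted p = 2.57e-06), and its change after JIL-1 RNAi was 0.06 (95% interval -0.15 to 0.28). Batch, control dsRNA and any difference in RNA method cannot be told apart between the control samples.

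Because batch A controls received GST dsRNA, the 22 Gst genes were set side by side in samples with and without it. In control samples 15 of the 22 were higher in batch A than in batch B (24.7% of all tested) and 3 lower (37.7%), with a median difference of 0.36. In JIL-1 RNAi samples, none of which received GST dsRNA, 15 were also higher in batch A (27.8%) and 4 lower (32.3%), with a median of 0.47. The sign of the difference was the same in both groups for 20 of the 22 (86.6% of all tested). The lowest difference among controls was -0.39, for GstO1, and JIL-1 RNAi samples differed by -0.40 there. GstE2 was among the 2 genes with opposite signs, higher by 0.20 in controls (adjusted p = 0.0546) and lower by 0.47 in JIL-1 RNAi samples (adjusted p = 0.000893).

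**Figure D4:**
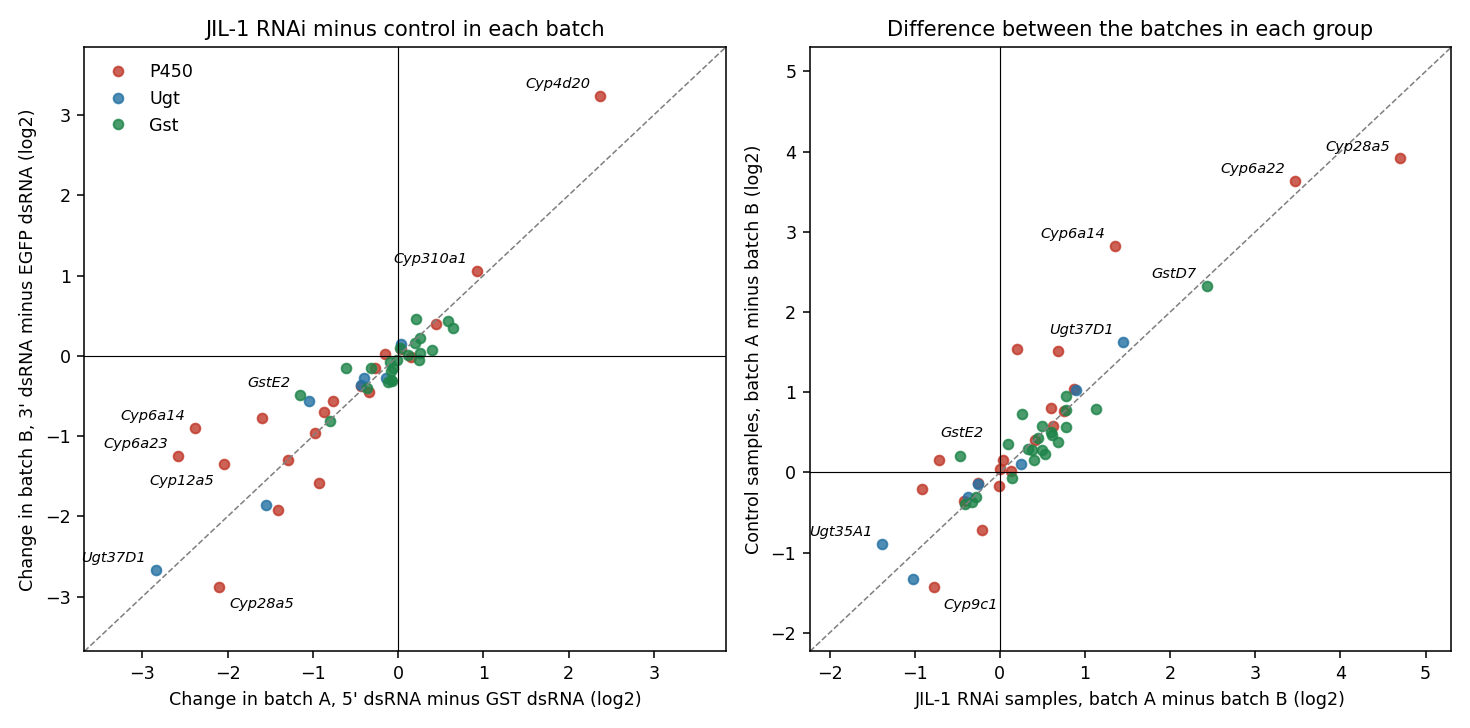
Left, the change after JIL-1 RNAi in batch A (horizontal) and batch B (vertical) for the 49 genes; right, the difference between batches A and B in JIL-1 RNAi samples (horizontal) and in controls (vertical), all in log2 with the dashed line marking equal values. On the left, Cyp6a14, Cyp6a23, Cyp12a5 and GstE2 are the genes whose change differed between batches past the threshold. Cyp4d20 (-0.87), Cyp4p1 (-0.83) and Cyp28a5 (0.79) lie farther off the line than Cyp12a5 and GstE2 but did not pass. Cyp28a5 on both sides and Cyp6a22 on the right rest partly on batch B values under 4, so that their distance is not a measured size.

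Genes that supply or regulate these enzymes were taken from lists, whose counts stand beside 20.8% rises and 14.9% falls over all tested. P450 enzymes need haem, and of 6 tested genes of its synthesis 3 fell and 1 rose. Alas, the first enzyme of the pathway, changed by -0.70 (SE 0.08) and Pbgs, which acts next, by -0.68 (SE 0.11). Coprox fell by 0.29 (SE 0.06) and Urod rose by 0.36 (SE 0.06). The median of the list was -0.21. None of the 3 tested redox partners passed, with Cyt-b5 at -0.17 (adjusted p = 0.0665) and Fdx1 at 0.18 (adjusted p = 0.111).

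Ugt enzymes draw on UDP-sugars, and of 5 tested genes of their supply 3 fell and 1 rose (median -0.35). Galt, a uridylyltransferase of galactose use, changed by -0.79 (SE 0.05, adjusted p = 4.7e-06), Pgm1, a phosphoglucomutase, by -0.35 (SE 0.06) and UGP, which makes UDP-glucose, by -0.45 (SE 0.12). Uxs, which makes UDP-xylose, rose by 0.28 (SE 0.06). Of 4 tested genes of glutathione supply and related proteins 2 fell, eEF1gamma, a translation factor with a Gst-like domain (-0.23, SE 0.05), and Gclc, the catalytic subunit for the first step of glutathione synthesis (-0.22, SE 0.08, adjusted p = 0.0477). The fall of Gclc was lost in 8 of the 10 fits that left out 1 sample, all but those without control replicate 2 or JIL-1 RNAi replicate 2, with changes of -0.28 to -0.19.

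Among 9 tested regulators 2 rose and none fell (median 0.04), a share of rises close to the 20.8% of all tested. They were Hr96, a nuclear receptor that responds to foreign compounds and lipids (0.24, SE 0.05), and EcR, the ecdysone receptor (0.36, SE 0.12, adjusted p = 0.0352). The call for EcR was lost in 6 of the 10 fits that left out 1 sample (control replicate 1, 4 or 5, or JIL-1 RNAi replicate 1, 2 or 5), with changes of 0.29 to 0.44. The other regulators did not pass. Of 8 tested enzymes and exporters of related function 4 fell and 1 rose (median -0.25). The carboxylesterases alpha-Est8 and alpha-Est7 changed by -1.23 (SE 0.13) and -0.54 (SE 0.06), and Jheh2, a juvenile hormone epoxide hydrolase, by -0.40 (SE 0.05). The esterase alpha-Est3 rose (fitted change 1.295, SE 0.20), or 1.02 with its values under 4 raised to 4. Without a term for batch it did not pass (0.95, adjusted p = 0.355), nor did alpha-Est7 (-0.71, adjusted p = 0.146). Of the 17 genes of the lists that passed with that term, 4 passed without it: alpha-Est8, Jheh2, Galt and Pbgs. None of 5 measured genes of ecdysone synthesis reached a mean of 4.

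Hemocyte markers moved in the same comparison. Of the 8, 4 fell (14.9% of all tested) and none rose (20.8%). Their summed log2 level, with both batches pooled, was 88.75 to 95.29 in JIL-1 RNAi samples and 92.90 to 99.84 in controls. These ranges include the difference between the batches, so their overlap does not mean overlap within a batch. In batches A and B, NimC1 changed by -2.11 and -2.18, Sr-CI by -1.40 and -1.20, drpr by -0.94 and -0.55, and Hml by -0.18 and -0.39. The rest did not pass and had changes of both signs. NimC1, a phagocytosis receptor, changed by -2.14 (SE 0.17), and its controls were higher in batch A by 4.67. None of the 8 was at the lowest value of the scale, and their part in the changes of the enzyme genes was not tested.

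Of the 150 measured genes of the families 101 had a mean of 4 or less: 61 P450, 28 Ugt and 12 Gst genes. Of these, 57 lay within 0.01 of the lowest value in all 10 samples, and 95 never exceeded 4. Just inside the limit were Cyp12a4 (mean 4.04) and Cyp6a22 (4.04), and just outside it GstE1 (3.76) and Cyp4aa1 (3.54). Some genes below the limit, chosen after their values were seen, exceeded 4 in the controls of batch A alone. Cyp6a13 had 2.69 and 2.60 in batch A after JIL-1 RNAi, against 5.74, 5.45 and 6.25 in controls, and 2.24 to 2.37 in batch B. Cyp4ac1 had 2.93 and 2.84, against 5.86, 4.94 and 5.50 in controls of batch A, and 2.21 to 2.86 in batch B. Cyp6d5 had 2.64 and 2.48, against 4.92, 4.31 and 3.87 in controls of batch A, and 2.29 to 2.50 in batch B. GstE1 exceeded 4 in 1 control of batch A (4.43). All the JIL-1 RNAi values of these genes lay under 4, so no size of change and no test is given.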

How the data were processed

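Total RNA was measured on single-colour arrays. The deposited log2 values are the authors' GCRMA output, per the submitters' processing notes. GCRMA subtracts a background modelled on probe sequence and gives 1 normalized value per probe set. No source used here states its version or whether both batches were run jointly. Per the labels' protocols, RNA came from either of 2 Qiagen methods, not assigned to samples. On each array 50.5% to 51.8% of the 18952 probe sets sat within 0.01 of the minimum, so fold changes of dim genes are compressed. Medians over tested probe sets were 9.22 to 9.42 across arrays.

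Array controls (183) were left out. Names came from the platform annotation, with 13544 probe sets matching Release 6 by gene ID, which gave symbols and arms. The probe set with the highest mean stood for each gene, and 6721 with a mean above 4 were tested. The models were run in limma 3.58.1 (R 4.3.3) with terms for group and batch, and a fit of 4 means gave within-batch values and differences between batches, all two-sided with Benjamini-Hochberg adjustment. The fit was tested on simulated data.

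The members and lists were chosen with earlier results of these data known. Named genes were those past the threshold (at most 12 per family by p), the 3 with the highest mean per family, those differing between batches, those next to the limit of 4, and up to 4 per list. Cyp6d4, Cyp6u1, Cyp4p1, Cyp12c1, Cyp12e1, GstT4, GstO1, GstD7 and the 8 hemocyte markers were added as named genes after their values were seen. Alternatives were the batch term, a replicate block, filters, normalization, variance model, weights, probe set choice, raised low values, an adjusted p under 0.1 and leaving out each sample. Applying them to the lists, all tested genes and control differences was added after seeing the data. Samples of 1 group and batch were not duplicates (SD of their difference 0.155 to 0.264 over 8 pairs).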

Additional observations from a re-analysis of the deposited data

Results flagged for a closer look

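The change after JIL-1 RNAi differed between the batches, by a test of the difference itself, for Cyp6a14 (change in batch A minus change in batch B -1.48), Cyp6a23 (-1.33), Cyp12a5 (-0.70) and GstE2 (-0.67). Each batch had its own JIL-1 dsRNA and its own control dsRNA, which cannot be told apart from other differences between batches. Among JIL-1 RNAi samples the value of Cyp6d4 in replicate 5, 7.82, lay apart from the nearest other value, 8.13. The gap was 0.855 of the range of the 5 samples. Chance flags about 5% of groups in this way.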

How the results depend on the processing

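The 33 calls among the 49 genes, Cyp12a4 included, kept their direction under all alternatives run. Of these, 29 passed in all 10 fits that left out 1 sample. The counts of called P450, Ugt and Gst genes stayed within 1.5 times of 17, 6 and 10, apart from 2 fits. Without a term for batch 8 P450, 2 Ugt and 2 Gst genes passed, with 4 genes of the lists (17 with batch) and 501 of all tested (2397 with batch). With the replicate number as a block beside the batch term, 6 Gst genes, 11 genes of the lists and 1203 of all tested passed, as did 16 P450 and 5 Ugt genes. Of the 33 calls, 21 were lost without batch, 6 with the block and 5 in another alternative. Deviations of same-numbered samples had correlations from -0.295 to 0.24. With 2 or 3 samples per group and batch, these cannot decide whether such samples share more than a number. With no filter on the mean 1452 of all passed, and 2 genes differed between batches. Leaving out 1 sample gave 17 P450, 5 to 6 Ugt and 8 to 11 Gst calls, and 1 to 4 genes that differed between batches. Of the genes that did not pass, GstD7 had changes of -0.41 without a batch term, -0.0011 with array weights and -0.0083 to 0.14 over the fits that left out 1 sample (lowest without JIL-1 RNAi replicate 1), and Cyp6a22 had -0.11 to 0.015 (highest without control replicate 1). Dim probe sets limit what can be said of genes under 4.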
